A study of Mus musculus with 8 samples.

Results

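The CYP4 fatty acid omega-hydroxylases of mouse liver are 10 genes here: Cyp4a10, Cyp4a12a, Cyp4a12b, Cyp4a14, Cyp4a31, Cyp4a32, Cyp4f13, Cyp4f14, Cyp4f15 and Cyp4v3, out of 52110 named rows of the deposited expression table. They were chosen by gene symbol, with the differences between the groups in these same libraries already known. Those differences are therefore given as a description and support nothing. The table holds 17 other rows of the Cyp4a, Cyp4b, Cyp4f, Cyp4v and Cyp4x families, which are counted separately.

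CYP4 enzymes are haem monooxygenases of the endoplasmic reticulum. They take electrons from the P450 reductase Por and add a hydroxyl group to the omega carbon, the methyl end of a fatty acid. Dehydrogenases then turn the omega-alcohol into a dicarboxylic acid, which peroxisomes shorten. In mouse liver Cyp4a10 and Cyp4a14 are known targets of the fatty acid receptor PPAR alpha, the Cyp4a12 enzymes are known for higher levels in males and for making 20-HETE from arachidonic acid, and Cyp4f enzymes include hydroxylases of leukotriene B4.

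Bulk liver RNA was sequenced in 8 libraries from WT mice on CDAHFD, a high-fat diet that lacks choline and supplies amino acids in place of protein and that gives steatohepatitis, a fatty and inflamed liver. All of the mice also received an intravenous injection of circulating extracellular vesicles from human volunteers. In the RIC_hEV group (4 libraries) the volunteers had undergone remote limb ischemic conditioning, a limb's blood flow being stopped for short spells, and in the ctr_hEV group (4 libraries) a sham treatment. The comparison asks how the liver differs after both kinds of vesicle. No group on a normal diet or without vesicles was analysed here. Age, sex, vesicle dose, time after injection and animal identity are not in the labels. Whether each library is its own mouse is not given, so p-values measure the spread between these libraries, which may be technical.

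Levels are in FPKM, mapped fragments scaled to library size and to each gene's length, summing to between 389616 and 430326 per library. Counts were not used, and depth was estimated at 19400000 to 28900000 fragments per library. Libraries ctr_hEV 1 and ctr_hEV 3 stood apart on the first principal component (44.4% of the variance), at -36.1 and -23.3, while the other 6 lay between -2.36 and 16.3. Results are therefore also given without both. The labelled tissue was checked on hepatocyte markers, of which albumin (Alb) lay between 16909 and 28051 FPKM. In all 8 libraries Xist was at 0.0173 FPKM or below and Ddx3y, on the Y chromosome, at 3.29 to 6.55 FPKM.

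All 10 genes encode the stretch around the cysteine that holds the haem iron, and it is shown because it is common to the set and separates its branches. The 30 coding bases below are from GENCODE M21 (build mm10), 5′ to 3′ on the coding strand, and capitals mark the codon of that cysteine. Each stretch is spliced, so the coordinates run over an intron. Cyp4a31 (chr4:115574950-115577948, plus strand) and Cyp4a32 (chr4:115614880-115621446, plus strand) have 0 differences from Cyp4a10 (chr4:115529502-115532543, plus strand). Cyp4a12a (chr4:115328986-115331846, plus strand) has 1, as has Cyp4a12b (chr4:115435240-115438069, plus strand), whose 30 bases are the same. Cyp4a14 (chr4:115487299-115489805, minus strand) has 2. Cyp4f13 (chr17:32924942-32925340, minus strand) and Cyp4f14 (chr17:32905666-32906065, minus strand) have 6 each, Cyp4f15 (chr17:32702398-32702801, plus strand) has 7 and Cyp4v3 (chr8:45307107-45308407, minus strand) has 10.
Cyp4a10: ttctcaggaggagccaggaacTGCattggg
Cyp4a12a: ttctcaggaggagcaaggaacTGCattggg
Cyp4a14: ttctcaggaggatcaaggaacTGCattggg
Cyp4f13: ttctcagcggggaccaggaacTGCatagga
Cyp4f14: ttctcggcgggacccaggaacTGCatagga
Cyp4f15: ttctccgctgggcccaggaacTGCatagga
Cyp4v3: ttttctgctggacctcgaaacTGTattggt

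Cyp4a12a and Cyp4a12b carry the widest relative difference between the groups and are near-identical copies, so their bases are set side by side. Their coding sequences of 1524 bases are 98.5% identical, with 23 substitutions. Of the 31-base stretches of Cyp4a12a, 62.2% also occur in Cyp4a12b, and 62.9% of those of Cyp4a12b occur in Cyp4a12a. The pair below shows coding bases 624 to 683 of both, where capitals mark the 4 bases that differ. Cyp4a12a lies at chr4:115326309-115326681 and Cyp4a12b at chr4:115432561-115432934, both on the plus strand (mm10), again with an intron inside the span.
Cyp4a12a: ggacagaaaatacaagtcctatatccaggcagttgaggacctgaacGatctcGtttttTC
Cyp4a12b: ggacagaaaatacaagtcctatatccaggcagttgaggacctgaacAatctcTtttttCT

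Cyp4a10, Cyp4a31 and Cyp4a32 form another close set, with coding identity of 96.6% (Cyp4a10 and Cyp4a31), 97.2% (Cyp4a10 and Cyp4a32) and 96.0% (Cyp4a31 and Cyp4a32). Cyp4a10 shares 36.5% of its 31-base stretches with Cyp4a32 and 26.5% with Cyp4a31. Cyp4a32 shares 62.8% of its stretches with any other gene. The pair below covers coding bases 200 to 259, where capitals mark 9 differing bases in Cyp4a10 (chr4:115519640-115519699, plus strand) and Cyp4a32 (chr4:115602270-115602329, plus strand).
Cyp4a10: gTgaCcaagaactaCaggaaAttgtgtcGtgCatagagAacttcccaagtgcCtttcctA
Cyp4a32: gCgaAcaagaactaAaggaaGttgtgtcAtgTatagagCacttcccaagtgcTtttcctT

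How the authors divided reads that match several copies is not given, so single levels within both sets are uncertain. Cyp4a14 is set further apart, with 75.3% coding identity to Cyp4a10 and 2.0% of its stretches shared. The share was 3.8% in Cyp4f13, 7.2% in Cyp4f14, 7.3% in Cyp4f15 and 7.5% in Cyp4v3, and 32.0% in Cyp4a31.

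The level of the set in this liver came almost wholly from Cyp4a14 and Cyp4a10. Over all 8 libraries Cyp4a14 averaged 2116 FPKM and Cyp4a10 987 FPKM, ranks 33 and 56 among the rows of the table. Cyp4a14 lay above Cyp4a10 in 8 of 8 libraries, by a ratio of 1.83 to 2.67. Cyp4v3 followed at 92.7 FPKM, so that Cyp4a10 was 10.6 times the next gene. Cyp4a31 (67.4 FPKM) lay below Cyp4v3 in 8 of 8 libraries.

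The lower levels were closer together. Cyp4a31 lay above Cyp4f15 (46.5 FPKM) in 6 of 8 libraries, and Cyp4f15 above Cyp4a32 (38.4 FPKM) in 6 of 8, so these neighbours did not separate in every library. Cyp4f14 (11.9 FPKM) lay above Cyp4a12b (11.6 FPKM) in 4 of 8 and cannot be ordered against it. Cyp4a12b lay above Cyp4a12a (9.42 FPKM) in 8 of 8, and Cyp4f13 was lowest at 5.77 FPKM. FPKM is per length, and these orders hold only as far as the lengths behind it, which are not given. For Cyp4a32 the annotation lists a transcript of 1530 bases of which 1527 are coding, so that it has almost no untranslated part.

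**Figure D1:**
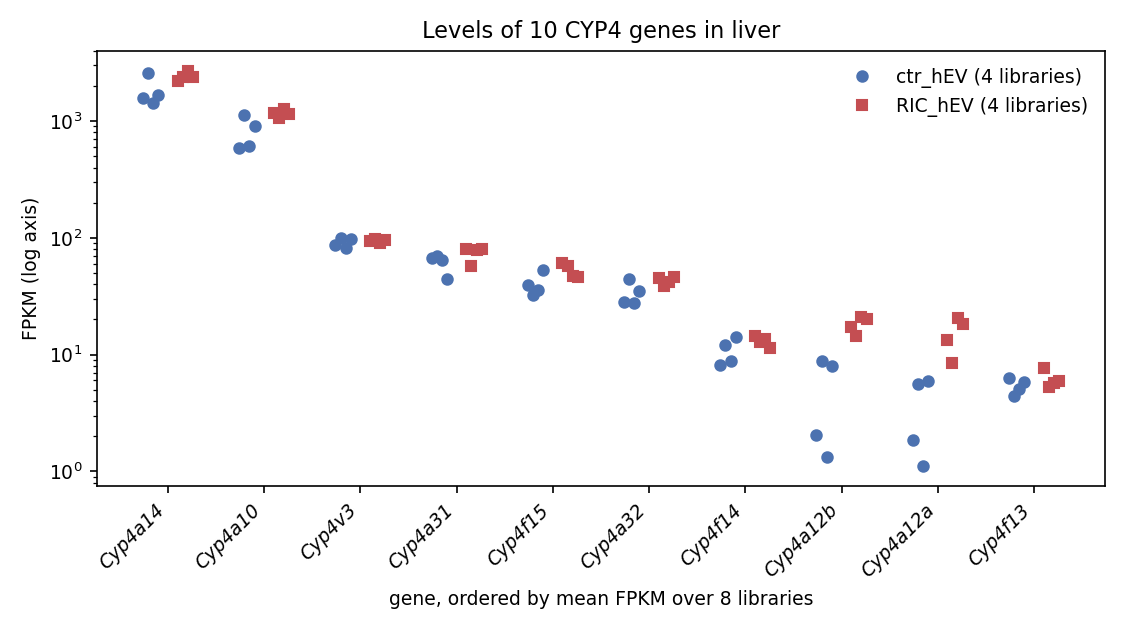
FPKM (log axis) of the 10 CYP4 genes in each of 4 ctr_hEV libraries (circles) and 4 RIC_hEV libraries (squares), genes ordered by mean FPKM. Cyp4a14 and Cyp4a10 lie far above the rest, and the groups are apart without overlap only in Cyp4a12a and Cyp4a12b.

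The sum of the 6 Cyp4a genes was 2259, 3841, 2149 and 2685 FPKM in ctr_hEV 1 to 4 and 3510, 3567, 4139 and 3686 FPKM in RIC_hEV 1 to 4. The means were 2734 ± 774 and 3726 ± 285 FPKM (SD, n = 4 per group). Library ctr_hEV 2 lay within the RIC_hEV range, so the groups overlapped. The sum amounted to 0.536% to 0.938% of all FPKM in ctr_hEV and 0.829% to 0.964% in RIC_hEV. Cyp4a10 and Cyp4a14 together held 95.5% to 96.7% of it in every library. Cyp4a12a and Cyp4a12b held 0.171%, 0.373%, 0.112% and 0.515% of it in ctr_hEV 1 to 4 and 0.873%, 0.644%, 1.01% and 1.05% in RIC_hEV 1 to 4, so that every RIC_hEV library had a larger share than any ctr_hEV library.

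Cyp4a12a and Cyp4a12b, known for making 20-HETE from arachidonic acid, had the largest ratios of group means in the set, and neither passed the test over all genes. Cyp4a12a measured 1.85, 5.54, 1.10 and 5.90 FPKM in ctr_hEV 1 to 4 and 13.4, 8.53, 20.7 and 18.3 FPKM in RIC_hEV 1 to 4. Cyp4a12b measured 2.03, 8.78, 1.32 and 7.92 FPKM in ctr_hEV and 17.2, 14.4, 21 and 20.2 FPKM in RIC_hEV. In both genes every RIC_hEV library lay above every ctr_hEV library, and ctr_hEV 1 and ctr_hEV 3 were the lowest. The groups were apart in this way and higher in RIC_hEV in 1.31% of all tested genes, and lower in 4.56%.

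The mean of Cyp4a12a was 3.59 ± 2.48 FPKM in ctr_hEV and 15.2 ± 5.42 in RIC_hEV (SD, n = 4), a ratio of 4.24. That of Cyp4a12b was 5.01 ± 3.88 and 18.2 ± 3.0 FPKM, a ratio of 3.63. Changes below are differences of mean log2(FPKM + 1), RIC_hEV minus ctr_hEV, relative to the median tested gene, which itself was at -0.11. The SE and the adjusted p (limma, Benjamini-Hochberg over 11274 tested genes, threshold 0.05) belong to the change as fitted. Cyp4a12a had a relative log2 change of 2.05 (1.94 as fitted, SE 0.39, limma adjusted p = 0.306), and 7 tested genes had a larger one. Cyp4a12b had a relative log2 change of 2.05 (1.94 as fitted, SE 0.42, limma adjusted p = 0.332).

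Single libraries moved these values. Without ctr_hEV 4 both genes passed (limma adjusted p = 0.0433), at relative log2 changes of 2.34 and 2.37. In that setting 175 genes passed over the whole table, against 4 with all libraries. Library ctr_hEV 4 was among the higher controls of both genes, so leaving it out had to raise the difference. Without ctr_hEV 1 and ctr_hEV 3 together the changes were 1.23 (limma adjusted p = 0.624) and 1.06 (limma adjusted p = 0.173). Those 2 were the lowest controls of both genes, so leaving them out had to lower the difference. It could not make the groups overlap, since they were apart with all libraries. In that setting 6.05% of tested genes were apart and higher in RIC_hEV, and 7.99% apart and lower. Within groups the spread was wide in ctr_hEV, with a coefficient of variation of 68.9% for Cyp4a12a and 77.4% for Cyp4a12b, against 35.6% and 16.5% in RIC_hEV. The lowest level of Cyp4a12a rests on an estimated 63 fragments and its highest on 1437. Cyp4a12b was 1.01 to 1.69 times Cyp4a12a in all libraries, and with the copies added together the relative log2 change was 2.21 (limma adjusted p = 0.332).

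**Figure D2:**
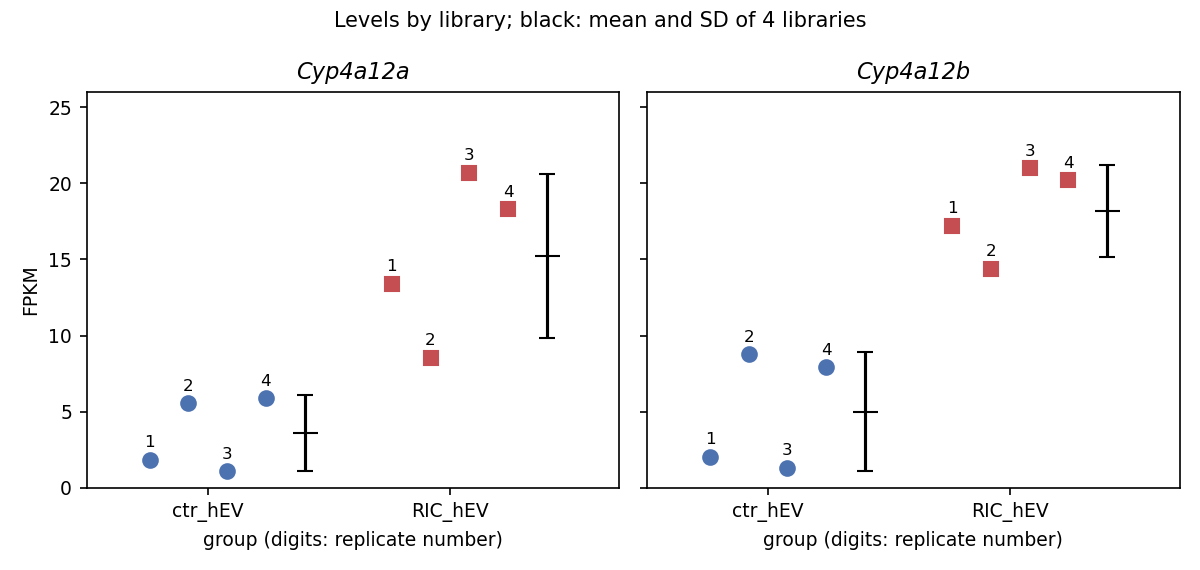
FPKM of Cyp4a12a (left) and Cyp4a12b (right) in each library, digits giving the replicate number, with the mean and SD of 4 libraries in black. All 4 RIC_hEV libraries lie above all 4 ctr_hEV libraries in both genes, and ctr_hEV 1 and 3 are lowest.

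Cyp4a10 and Cyp4a14, the abundant PPAR alpha targets, were on average 1.43 and 1.33 times as high in RIC_hEV, with overlapping groups and without passing. Cyp4a10 measured 588, 1134, 615 and 915 FPKM in ctr_hEV 1 to 4 and 1162, 1072, 1268 and 1139 FPKM in RIC_hEV 1 to 4. Cyp4a14 measured 1572, 2579, 1440 and 1677 FPKM in ctr_hEV and 2193, 2376, 2710 and 2383 FPKM in RIC_hEV. In both genes ctr_hEV 2 lay within the RIC_hEV range and the other 3 ctr_hEV libraries below it. The relative log2 change was 0.68 for Cyp4a10 (SE 0.20, limma adjusted p = 0.353) and 0.56 for Cyp4a14 (SE 0.17, limma adjusted p = 0.354). Without ctr_hEV 1 and ctr_hEV 3 the changes were 0.21 and 0.24, and with quantile normalization of all libraries 0.34 and 0.27. The coefficient of variation of Cyp4a10 was 32.0% in ctr_hEV and 6.99% in RIC_hEV, and that of Cyp4a14 28.5% and 8.91%.

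Cyp4a31 and Cyp4a32, the close copies of Cyp4a10, had smaller differences. Cyp4a31 measured 67.0, 69.2, 64.2 and 44.5 FPKM in ctr_hEV 1 to 4 and 79.4, 57.1, 78.2 and 79.4 FPKM in RIC_hEV 1 to 4. Library RIC_hEV 2 lay among the controls and ctr_hEV 4 below all other libraries. Its relative log2 change was 0.38 (SE 0.16, limma adjusted p = 0.434), and 0.41 without ctr_hEV 1 and ctr_hEV 3. Cyp4a32 measured 28.1, 44.3, 27.9 and 34.9 FPKM in ctr_hEV and 45.3, 38.8, 41.8 and 46.3 FPKM in RIC_hEV, where ctr_hEV 2 again lay within the RIC_hEV range. Its relative log2 change was 0.47 (SE 0.15, limma adjusted p = 0.354), and 0.15 without both libraries. Cyp4a10, Cyp4a31 and Cyp4a32 added together had a relative log2 change of 0.64 (limma adjusted p = 0.353).

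The Cyp4f genes lie on chromosome 17 and overlapped between the groups in each case. Their sum was 53.6, 49.0, 49.5 and 72.5 FPKM in ctr_hEV 1 to 4 and 83.1, 75.4, 66.9 and 63.4 FPKM in RIC_hEV 1 to 4, with ctr_hEV 4 inside the RIC_hEV range. Cyp4f15 made up most of it. It measured 39.2, 32.6, 35.6 and 52.6 FPKM in ctr_hEV and 61.1, 57.3, 47.5 and 46.0 FPKM in RIC_hEV. Again ctr_hEV 4 was the control inside the RIC_hEV range. The relative log2 change of Cyp4f15 was 0.52 (SE 0.16, limma adjusted p = 0.354), and 0.37 without ctr_hEV 1 and ctr_hEV 3.

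Cyp4f14, a hydroxylase of leukotriene B4 and of vitamin E, measured 8.08, 12, 8.75 and 14.1 FPKM in ctr_hEV and 14.4, 12.9, 13.7 and 11.4 FPKM in RIC_hEV. Its relative log2 change of 0.40 (SE 0.16, limma adjusted p = 0.411) was 0.03 without ctr_hEV 1 and ctr_hEV 3, its lowest libraries. Cyp4f13 measured 6.26, 4.37, 5.11 and 5.83 FPKM and 7.65, 5.25, 5.75 and 5.98 FPKM, with 3 of 4 RIC_hEV libraries inside the control range. Its relative log2 change was 0.27 (SE 0.13, limma adjusted p = 0.536), and 0.26 without both libraries.

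Cyp4v3, the mouse counterpart of the human gene mutated in Bietti crystalline dystrophy, had the steadiest level of the set. It measured 87.2, 99.8, 81.1 and 97.5 FPKM in ctr_hEV 1 to 4 and 94.1, 96.7, 89.7 and 95.7 FPKM in RIC_hEV 1 to 4. The RIC_hEV libraries all lay inside the control range. The coefficient of variation was 9.60% and 3.32%, the smallest of the 10 genes in each group. The relative log2 change of 0.16 (0.05 as fitted, SE 0.10, limma adjusted p = 0.829) was 0.03 with quantile normalization. It turned to -0.04 without ctr_hEV 1 and ctr_hEV 3. In that setting the groups of Cyp4v3 were apart and lower in RIC_hEV, as in 7.99% of tested genes.

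All 10 genes were tested, and the mean FPKM of each was at least 1 in either group. The change as fitted was above 0 in 10 of 10, against 27.0% of all tested genes, a contrast through which the genes were proposed and from which nothing is read. The median relative log2 change of the 10 was 0.50. None passed, with limma adjusted p between 0.306 and 0.829, while 4 of 11274 tested genes passed in all (0.0355%). At an unadjusted p under 0.05 in limma there were 6 of the 10, and 1576 of all 11274 tested genes. From this count, too, nothing is read. The groups did not overlap in 2 of the 10. With each library centred on its median gene, Cyp4a10 joined them, and 4.22% of tested genes were then apart and higher in RIC_hEV. Without ctr_hEV 1 and ctr_hEV 3 the relative log2 change was above 0 in 9 of 10.

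**Figure D3:**
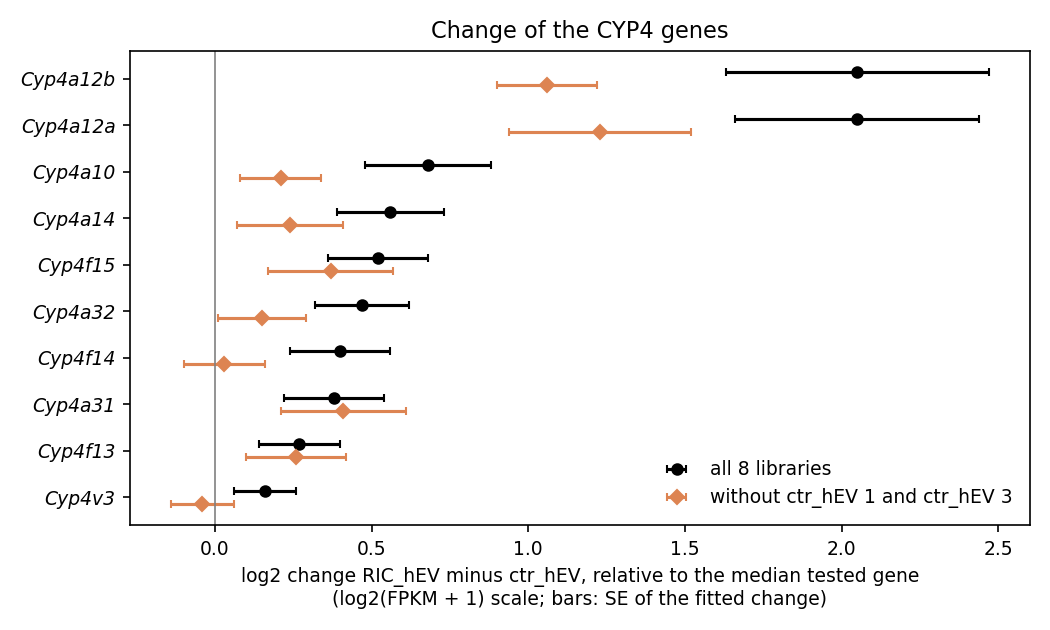
Log2 change of each CYP4 gene, RIC_hEV minus ctr_hEV, relative to the median tested gene, with the SE of the fitted change as bars, for all 8 libraries (black) and without ctr_hEV 1 and ctr_hEV 3 (orange). Cyp4a12a and Cyp4a12b lie at 2.05 with all libraries and at 1.23 and 1.06 without those 2, and Cyp4v3 turns from 0.16 to -0.04.

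The 6 Cyp4a genes sit in 1 cluster on chromosome 4. The cluster holds 20 annotated genes and pseudogenes over 541 kb (mm10, GENCODE M21), all of them in the table, and 9 were listed at 0 in every library, including Cyp4x1, Cyp4a29 and Cyp4a30b. In order along the plus strand, Cyp4a12a spans 115299046 to 115332815, Cyp4a12b 115411624 to 115439034, Cyp4a14 115486200 to 115496142 (minus strand) and Cyp4a10 115518264 to 115533649. Cyp4a31 spans 115563649 to 115579015 and Cyp4a32 115600969 to 115621602. Thus Cyp4a30b, listed at 0, lies between Cyp4a12b and Cyp4a14, the most abundant gene of the set. The flanking genes were low and had lower means in RIC_hEV, 1.44 and 0.639 FPKM (ctr_hEV and RIC_hEV) for Pdzk1ip1 and 3.17 and 2.53 FPKM for Efcab14. The pseudogene Gm12837 lies within Cyp4a12b on the other strand at means of 0.0908 and 0.0773 FPKM. The strand setting of the counting is not given, so reads of overlapping genes on both strands cannot be told apart.

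**Figure D4:**
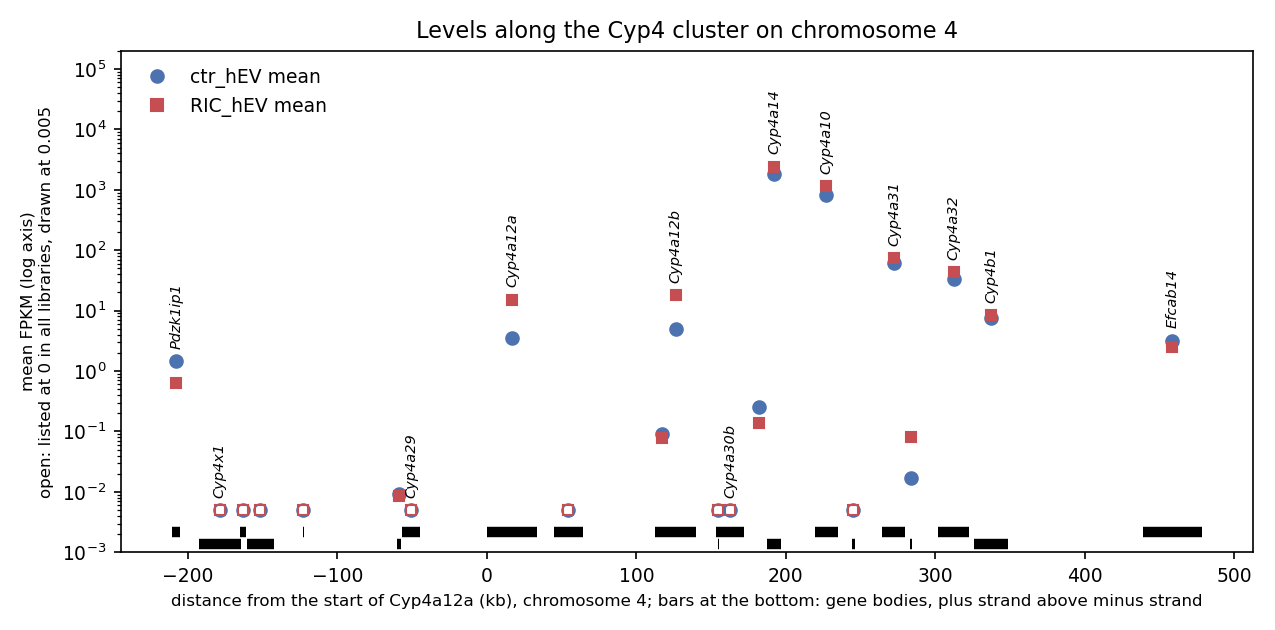
Mean FPKM (log axis) of ctr_hEV (circles) and RIC_hEV (squares) for the 20 genes of the Cyp4 cluster and its 2 flanking genes, by distance in kb from the start of Cyp4a12a; bars mark gene bodies and open symbols genes listed at 0 in all libraries. Cyp4a12a and Cyp4a12b show the widest gap between the group means on this axis among the Cyp4a genes, and Cyp4a14 and Cyp4a10 the highest levels.

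Of the 17 other Cyp4 rows, 9 were listed at 0 throughout, 3 averaged under 0.1 FPKM and 4 were tested. Cyp4b1, next to Cyp4a32, averaged 7.44 ± 0.281 FPKM in ctr_hEV and 8.39 ± 1.85 in RIC_hEV (SD, n = 4), a relative log2 change of 0.24 (limma adjusted p = 0.617). Cyp4f17 was at 2.39 ± 0.693 and 2.50 ± 0.922 FPKM (0.14, limma adjusted p = 0.947). Cyp4f16 measured 4.11, 1.87, 3.82 and 1.78 FPKM in ctr_hEV 1 to 4 and at 1.81 to 2.57 FPKM in RIC_hEV (-0.19, limma adjusted p = 0.478). Cyp4f18, the leukotriene B4 hydroxylase of neutrophils, measured 5.17, 2.13, 4.06 and 2.58 FPKM and at 2.48 to 3.17 FPKM (-0.04, limma adjusted p = 0.705). Cyp4f16 and Cyp4f18 were thus highest in ctr_hEV 1 and ctr_hEV 3, where Cyp4a12a and Cyp4a12b were lowest. Cyp4f39 averaged 0.101 FPKM.

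The proteins that feed electrons and haem to the CYP4 enzymes included 7 tested genes, with 5 above and 2 below the median gene, a median relative log2 change of 0.14 (-0.04 without ctr_hEV 1 and ctr_hEV 3) and none passing. Por, the reductase, measured 125, 86.4, 108 and 171 FPKM in ctr_hEV 1 to 4 and 214, 183, 149 and 162 FPKM in RIC_hEV 1 to 4. It overlapped because ctr_hEV 4 lay inside the RIC_hEV range, and its relative log2 change was 0.67 (SE 0.20, limma adjusted p = 0.353) and 0.55 without ctr_hEV 1 and ctr_hEV 3. Cyb5a, a second electron donor, was at 218 ± 49.8 and 243 ± 37.6 FPKM, and Pgrmc1, a haem-binding partner of P450 enzymes, at 442 ± 33.8 and 420 ± 10.8 FPKM.

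The steps after omega-hydroxylation, from the omega-alcohol to the shortened dicarboxylic acid, were a list of 21 genes, all tested, of which 18 lay above and 3 below the median gene and none passed. The median relative log2 change was 0.26, and 0.06 without ctr_hEV 1 and ctr_hEV 3. Acaa1a, the peroxisomal thiolase, was at 59.1 ± 5.27 and 76.7 ± 3.95 FPKM, without overlap (0.48, limma adjusted p = 0.332). Abcd2, a peroxisomal fatty acyl transporter, went the other way at 8.91 ± 1.54 and 5.56 ± 0.658 FPKM, again without overlap (-0.48, limma adjusted p = 0.332).

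Other known targets of PPAR alpha were a list of their own. Of 28 listed genes 27 were tested, with 23 above and 4 below the median gene, a median relative log2 change of 0.28 (0.20 without ctr_hEV 1 and ctr_hEV 3) and none passing. Angptl4, which blocks lipoprotein lipase, measured 40.9, 48.5, 37.2 and 49.2 FPKM in ctr_hEV and 64.4, 53.9, 61.5 and 59.0 FPKM in RIC_hEV, without overlap (0.55, limma adjusted p = 0.332). Acadl, a mitochondrial acyl-CoA dehydrogenase, was at 172 ± 13.1 and 198 ± 11.5 FPKM, where the nearest libraries of both groups round to 187 FPKM (0.31, limma adjusted p = 0.370). The receptor itself overlapped widely between the groups: Ppara measured 28.8, 36.5, 32.7 and 35.6 FPKM in ctr_hEV and 27.5, 32.5, 28.2 and 39.9 FPKM in RIC_hEV (0.04, SE 0.14, limma adjusted p = 0.802). Its partner Rxra was at 52.0 ± 4.51 and 50.4 ± 3.0 FPKM (0.07, limma adjusted p = 0.841).

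Among 21 tested nuclear receptors and coregulators 15 lay above and 6 below the median gene (median 0.04, and 0.08 without ctr_hEV 1 and ctr_hEV 3), and none passed. The groups were apart and lower in RIC_hEV for Pparg, the lipid-storing relative of PPAR alpha, at 8.33 ± 1.98 and 5.16 ± 0.678 FPKM (-0.47, limma adjusted p = 0.332). The same held for Rxrg at 1.54 ± 0.178 and 0.942 ± 0.201 FPKM (-0.28, limma adjusted p = 0.332) and for the glucocorticoid receptor Nr3c1 at 9.71 ± 0.198 and 7.96 ± 0.851 FPKM (-0.15, limma adjusted p = 0.354).

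Growth hormone is the known setter of male and female patterns in mouse liver, which include Cyp4a12. Of 11 genes of its signalling, 10 were tested, with 5 above and 5 below the median gene (median -0.09, and -0.20 without ctr_hEV 1 and ctr_hEV 3) and none passing. The kinase Jak2 measured 4.60, 4.57, 4.06 and 3.12 FPKM in ctr_hEV and 2.90, 2.70, 2.83 and 2.66 FPKM in RIC_hEV, without overlap (-0.31, SE 0.12, limma adjusted p = 0.332). The receptor Ghr was at 17.8 ± 5.21 and 19.0 ± 1.45 FPKM and the transcription factors Stat5b at 10.2 ± 0.576 and 9.99 ± 0.790 FPKM and Stat5a at 2.41 ± 0.199 and 2.32 ± 0.412 FPKM. The hormone product Igf1 was at 35.9 ± 8.65 and 36.7 ± 4.81 FPKM and its carrier subunit Igfals at 5.38 ± 2.59 and 6.31 ± 2.03 FPKM. None of these 5 had a limma adjusted p under 0.650, the value of Igfals.

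The feedback genes of the pathway were marked by 1 control library. Socs2 measured 2.69, 2.36, 2.29 and 7.78 FPKM in ctr_hEV 1 to 4 and 2.66, 2.44, 1.86 and 0.921 FPKM in RIC_hEV 1 to 4 (limma adjusted p = 0.392). Cish measured 2.73, 1.95, 1.7 and 7.02 FPKM and 3.52, 2.39, 1.73 and 1.11 FPKM (limma adjusted p = 0.582). Both were highest in ctr_hEV 4 and lowest in RIC_hEV 4, libraries in which Cyp4a12a was at 5.90 and 18.3 FPKM. The liver factor Onecut1 was at 4.65 ± 4.36 and 2.26 ± 1.19 FPKM (limma adjusted p = 0.458), also highest in ctr_hEV 4. Bcl6, a repressor with higher levels in males, averaged 2.75 FPKM in ctr_hEV and 1.69 FPKM in RIC_hEV, with overlap (limma adjusted p = 0.414). Cux2, a factor of female liver, lay below the filter at 0.820 ± 0.121 and 0.557 ± 0.337 FPKM.

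Genes known for higher levels in male liver, Cyp4a12 left out, numbered 16, of which 8 were tested. All 8 lay above the median gene (median 0.83, and 0.25 without ctr_hEV 1 and ctr_hEV 3), and none passed. A gene enters the test through its mean over both groups, so low genes that are high in 1 group are favoured. Mup7 entered in this way, through RIC_hEV 1 alone, and it counts among the 8 and in their median. The urinary protein gene Mup3 measured 20.6, 132, 28.5 and 143 FPKM in ctr_hEV 1 to 4 and 183, 169, 178 and 154 FPKM in RIC_hEV 1 to 4 (1.65, SE 0.55, limma adjusted p = 0.353). As with Cyp4a12a, ctr_hEV 1 and ctr_hEV 3 were the lowest and no library overlapped. The Mup3 change was 0.34 without those 2. Mup21 measured 0.401, 2.62, 0.690 and 1.95 FPKM and 5.50, 3.84, 3.86 and 3.54 FPKM (1.31, SE 0.27, limma adjusted p = 0.332), also lowest in ctr_hEV 1 and ctr_hEV 3. Complement C6 was at 15.1 ± 1.12 and 19.6 ± 3.44 FPKM without overlap (0.46, limma adjusted p = 0.354). Mup7 was listed at 0 in ctr_hEV 1, stayed under 1 FPKM in 7 libraries and reached 19.8 FPKM in RIC_hEV 1 (limma adjusted p = 0.390). Mup3, Mup21, C6 and Mup7 were named because their groups did not overlap. That part of the likeness to Cyp4a12a was fixed by the rule. The groups overlapped in the other tested genes, Mup20, Cyp2d9, Cyp7b1 and Selenbp2, named here to complete the list. Their relative log2 changes were 0.89, 0.77, 0.32 and 0.33. Without ctr_hEV 1 and ctr_hEV 3 they were 0.19, 0.17, -0.23 and -0.22. Mup genes are a family of close copies, so their single levels are uncertain.

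Genes known for higher levels in female liver numbered 19, with 10 tested, 4 above and 6 below the median gene, a median of -0.14 (-0.15 without ctr_hEV 1 and ctr_hEV 3) and none passing. Cyp2b9 measured 43.5, 62.7, 30.4 and 99.4 FPKM in ctr_hEV and 46.1, 44.2, 36.6 and 10.6 FPKM in RIC_hEV, with overlap (limma adjusted p = 0.411). Cyp2a4 was at 132 ± 53.2 and 89.4 ± 37.4 FPKM (limma adjusted p = 0.421). The sex chromosome genes tested were all slightly below the median gene (4 of 4, median -0.05). Eif2s3y was at 4.64 ± 0.757 and 4.12 ± 0.369 FPKM, Kdm5d at 1.12 ± 0.153 and 0.929 ± 0.0906 FPKM and Uty at 1.16 ± 0.121 and 0.906 ± 0.0817 FPKM.

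**Figure D5:**
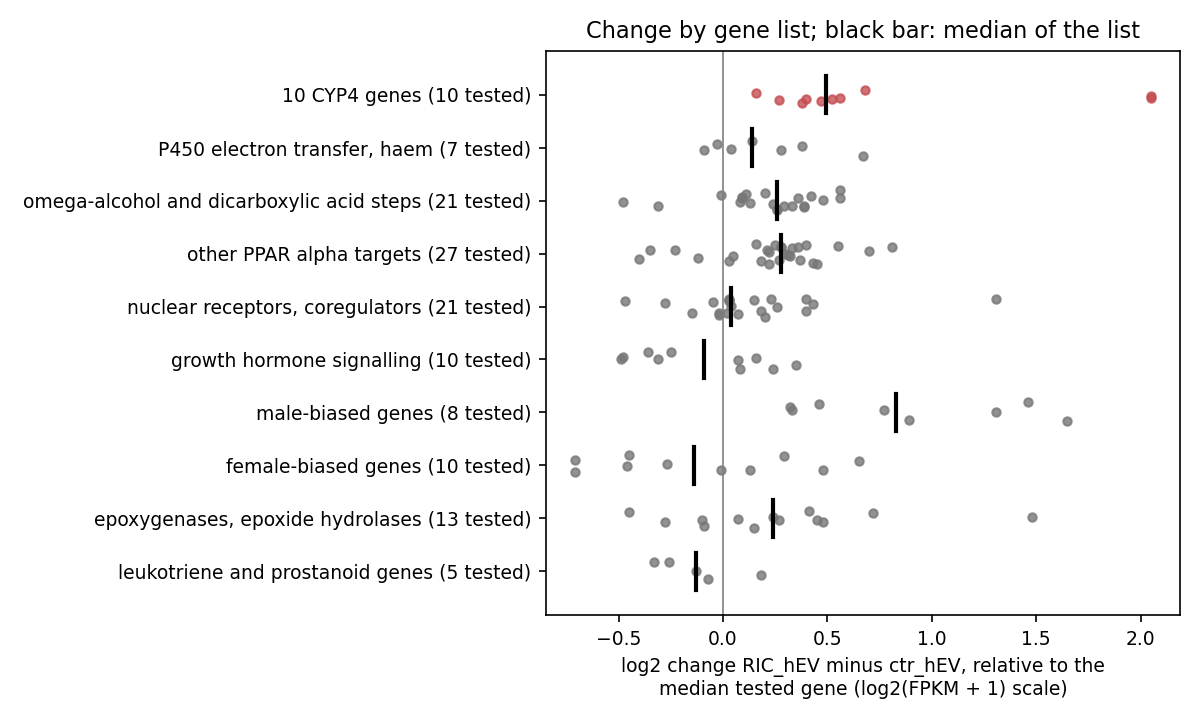
Log2 change of each tested gene, RIC_hEV minus ctr_hEV, relative to the median tested gene, for the 10 CYP4 genes (red) and 9 related gene lists (grey), with the median of each in black. The CYP4 median is 0.50, that of male-biased genes 0.83 and that of female-biased genes -0.14. Mup7, among the male-biased genes, entered the test through RIC_hEV 1 alone. None of the genes shown passed the test over all genes.

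Other enzymes on arachidonic acid were mixed. Of 13 tested epoxygenases and epoxide hydrolases 9 lay above and 4 below the median gene, the median of 0.24 turned to -0.19 without ctr_hEV 1 and ctr_hEV 3, and none passed. Ephx2, the soluble epoxide hydrolase, measured 264, 313, 255 and 288 FPKM in ctr_hEV and 366, 340, 346 and 360 FPKM in RIC_hEV, without overlap (0.45, SE 0.10, limma adjusted p = 0.332). It kept a relative change of 0.26 without both libraries. Ephx1, the microsomal one, was at 242 ± 46.8 and 208 ± 18.7 FPKM. Of 16 genes of leukotriene and prostanoid synthesis and reception 5 were tested, with 1 above and 4 below the median gene (median -0.13, and -0.02 without those libraries) and none passing. Alox5ap, which presents arachidonic acid to 5-lipoxygenase, was at 9.46 ± 3.54 and 6.89 ± 1.51 FPKM, and Ptgr2, a prostaglandin reductase, at 12.1 ± 1.40 and 12.7 ± 1.53 FPKM.

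Markers of some other liver cells were highest in ctr_hEV 1 and ctr_hEV 3, in which several CYP4 genes were lowest. In bulk tissue, fewer cells of a type and less RNA per cell cannot be told apart. The summed level of 7 cholangiocyte markers was 146, 26.3, 108 and 27.7 FPKM in ctr_hEV 1 to 4 and 20.2 to 39.0 FPKM in RIC_hEV. Thus ctr_hEV 1 and ctr_hEV 3, lowest in Cyp4a12a, Cyp4a12b, Cyp4a10 and Cyp4a32, were highest in bile duct markers. Spp1 alone was 129 of the 146 FPKM in ctr_hEV 1 and 97.7 of the 108 FPKM in ctr_hEV 3. The other markers of that list, at far lower levels, were also highest in those libraries. The 9 macrophage markers summed to 573 to 1066 FPKM in ctr_hEV and 431 to 677 in RIC_hEV, and the 9 stellate cell markers to 106 to 237 and 102 to 131 FPKM, both with their highest sums in ctr_hEV 1 and ctr_hEV 3. The 10 neutrophil markers summed to 13.3 to 73.3 and 7.01 to 16.1 FPKM. Spp1 was at 68.5 ± 53.4 and 23.6 ± 8.51 FPKM, Epcam at 4.03 ± 3.85 and 1.10 ± 0.108, Gpnmb at 74.9 ± 40.0 and 51.3 ± 13.6, Lyz2 at 450 ± 158 and 316 ± 81.9, S100a8 at 11.8 ± 7.22 and 3.61 ± 0.803, and Col3a1 at 34.9 ± 27.1 and 19.5 ± 4.43. Median relative log2 changes were -0.72 for cholangiocyte, -0.10 for macrophage, -0.18 for stellate cell and -1.11 for neutrophil markers, and 0.07, 0.10, 0.18 and -0.70 without ctr_hEV 1 and ctr_hEV 3. The medians cover the tested markers, 4 of 7 for cholangiocytes, 4 of 10 for neutrophils and all 9 of each other list. Lyz2 alone was 664 of the 1066 FPKM of macrophage markers in ctr_hEV 1. The macrophage genes Clec4f (means of 55.9 and 57.4 FPKM, relative log2 change 0.12), Timd4 (2.56 and 2.93 FPKM, 0.25) and Marco (23.2 and 27.1 FPKM, 0.25) went against the sum and were named after their values were seen. No marker of these lists was at 0 in all libraries and none passed over all genes.

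The 10 hepatocyte markers in the table, of 11 listed, summed to 28580, 36969, 35317 and 41390 FPKM in ctr_hEV 1 to 4 and 32452 to 39077 FPKM in RIC_hEV. Library ctr_hEV 1 lay below the RIC_hEV range and ctr_hEV 4 above it. The 8 endothelial markers summed to 74.8 to 90.2 and 70.2 to 99.1 FPKM. The 7 T and NK cell markers summed to 4.88 to 7.45 and 6.50 to 7.72 FPKM. The 7 B and plasma cell markers summed to 50.2 to 82.5 and 58.9 to 65.3 FPKM. Sdc1 alone was 46.6 to 79.8 and 54.5 to 60.5 FPKM of this, so the sum describes Sdc1 and not the list. Jchain was higher in RIC_hEV, at means of 1.31 and 3.03 FPKM, and the rest of that list lay below the filter. The 9 heat-shock and stress genes, kept as signs of handling, summed to 595, 776, 691 and 934 FPKM in ctr_hEV and 900 to 1211 FPKM in RIC_hEV. Their median relative log2 change was 0.58, and 0.30 without ctr_hEV 1 and ctr_hEV 3. The part of these cell and stress genes in the CYP4 values was not tested.

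Across the 8 libraries the gene most like the mean of Cyp4a12a and Cyp4a12b was Acadl (Pearson r = 0.990 over 8 libraries of median-centred log2 values, and 0.97 for deviations from the group means). The next were Acadvl (0.981 and 0.94), Tmem243 (0.979 and 0.93), Plpp1 (0.974 and 0.98) and Chrna2 (0.973 and 0.93). For the mean of Cyp4a10 and Cyp4a14 they were Cd1d1 (0.982 and 0.99), Hsd17b4 (0.966 and 0.93), Tmem243 (0.963 and 0.95), Hsd17b11 (0.962 and 0.92) and Timm9 (0.962 and 0.93). These are the highest of 11264 genes compared, over libraries that share the split of ctr_hEV 1 and ctr_hEV 3 from the rest, and describe these 8 libraries. The ranges were unlike in size: Acadl ran from 157 to 214 FPKM, and Cyp4a12a from 1.10 to 20.7 FPKM.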

How the data were processed

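The deposited table gives FPKM per gene and library, made by the authors. The tools are HISAT2 2.2.1, HTSeq 0.13.5, Trimmomatic 0.38, FastQC 0.11.9, DESeq2 1.18.1 and R 3.4.1, on build mm10, per the submitters' processing notes. RNA was extracted with Trizol and libraries made with a VAHTS kit, per the labels' protocols. The program, gene lengths, annotation and strand setting behind FPKM were not given in the sources used here.

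The table had 55335 rows. The 3225 without a gene name (0.176% to 0.207% of FPKM) were left out. For 80 symbols that occur repeatedly, only the most abundant row was named, and 26 symbols turned into dates were tested but not named. Values were tested as log2(FPKM + 1). Every gene averaging at least 1 FPKM was fitted with limma 3.58.1 (R 4.3.3; empirical Bayes with a mean-variance trend, two-sided, Benjamini-Hochberg), and the fit was tested on simulated data. A change on this scale understates that of low genes. Depth was estimated from the most common value of FPKM times exon length among low genes, and intervals from it were not computed. Genes of the lists below the filter had exact permutation tests.

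The 10 genes and the 19 lists (237 of 238 symbols matched) were chosen with earlier results of these data known. Named were all 10 genes, other Cyp4 rows averaging at least 0.1 FPKM, growth hormone and sex chromosome genes, Ppara, Rxra, Por, and per list up to 4 genes whose groups did not overlap or otherwise its 2 most abundant, plus the 5 genes most alike. A gene that this rule names is not reported here. The genes flanking the cluster, its pseudogenes and the genes in it listed at 0 were named for their position. Sequences and 31-base stretches come from GENCODE M21. Alternatives were other scalings, filters, pseudocounts and library sets, library weights and a replicate block.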

Additional observations from a re-analysis of the deposited data

Results flagged for a closer look

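In 8 of 144 groups of 4 libraries (5.56%), 1 library lay farther from the others than Dixon's limit for 4 values (0.829 of the range), where chance gives about 1 in 20. Among the CYP4 genes this was Cyp4a31, at 57.1 FPKM in RIC_hEV 2 and 78.2 to 79.4 in the other RIC_hEV libraries. Library ctr_hEV 4 stood apart in Socs2 (7.78 FPKM, others 2.29 to 2.69) and Onecut1 (11.2 FPKM, others 2.25 to 2.87). Library RIC_hEV 1 stood apart in Onecut1 (4.03 FPKM, others 1.46 to 1.87), Mup7 (19.8 FPKM, others 0.454 to 0.793) and Mup21 (5.5 FPKM, others 3.54 to 3.86). Bcl6 was at 3.03 FPKM in RIC_hEV 4 (others 1.09 to 1.36) and Cux2 at 1.06 FPKM in RIC_hEV 2 (others 0.367 to 0.401).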

How the results depend on the processing

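The number of genes passing over the whole table was small and rested on single libraries. It was 4 with all libraries, ranged from 1 to 175 with 1 library left out, and was 175 without ctr_hEV 4 (41 higher, 134 lower), 2 without ctr_hEV 3 or RIC_hEV 1, and 1 without RIC_hEV 3 or RIC_hEV 4. It was 15 with library weights and 2 with no filter on low values. The groups did not overlap in 662 genes (1.31% of tested genes higher in RIC_hEV and 4.56% lower). Without ctr_hEV 1 and ctr_hEV 3 they did not overlap in 1554 (6.05% and 7.99%). Groups of 4 and 2 libraries lie apart more often by chance than groups of 4 and 4, so these counts cannot be compared. For this count, leaving out both libraries and the scalings were chosen after seeing the data. So were the alternatives for the number of CYP4 genes above the median gene. Of 182 CYP4 values under alternatives, 179 kept their direction and their side of the threshold, which none had passed. Quantile normalization took the relative log2 change of Cyp4a10 from 0.68 to 0.34, of Cyp4a14 from 0.56 to 0.27 and of Cyp4v3 from 0.16 to 0.03. Cyp4a12a and Cyp4a12b passed without ctr_hEV 4 (relative log2 changes 2.34 and 2.37, limma adjusted p = 0.0433), and Cyp4v3 turned to -0.04 without ctr_hEV 1 and ctr_hEV 3. The limma adjusted p of Cyp4a12a and Cyp4a12b was 0.0552 with library weights. The highest weight (2.47) went to ctr_hEV 3, the lowest control of both genes, and the lowest (0.393) to ctr_hEV 4. Of 285 list medians, 280 moved by less than 1 SD and 5 by more. Some medians changed sign without ctr_hEV 1 and ctr_hEV 3. That of epoxygenases and epoxide hydrolases went from 0.24 to -0.19, and that of macrophage markers from -0.10 to 0.10. Same-numbered libraries did not deviate together (correlations of 0.05, 0.12, -0.01 and -0.23), 1 of 4 ctr_hEV libraries was most like its own number, and with the replicate number as a replicate block 3 genes passed. The cause of these shifts was not tested. Precision is limited by 4 libraries per group and, for Cyp4a12a, by as few as an estimated 63 fragments.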

Other observations

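Of the genes on the lists that lay below the filter, 51 were above 0 and were compared by two-sided exact permutation of the group labels (70 assignments). The smallest p that this design allows, 0.0286, was reached by 4 genes: the fatty acid carrier Fabp3, the cyclooxygenase Ptgs2, the chemokine receptor Cxcr2 and Cd4. After Benjamini-Hochberg adjustment the lowest p was 0.364. As computed, the log2 change was -0.43 for Fabp3, -0.15 for Ptgs2, -0.48 for Cxcr2 and 0.14 for Cd4, so that 3 lay lower and 1 higher in RIC_hEV in every library.

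Jchain, the joining chain of antibodies, measured 0.807, 1.75, 1.44 and 1.25 FPKM in ctr_hEV 1 to 4 and 3.52, 2.89, 2.25 and 3.47 FPKM in RIC_hEV 1 to 4. The groups did not overlap and the gene did not pass (relative log2 change 0.92, SE 0.15, limma adjusted p = 0.235).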
